A study of Mus musculus with 18 samples.

Results

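Erythroid genes were followed in mouse leukemia cells and normal blood progenitors after 24 h of induced reprogramming factors or of reprogramming compounds. The genes were 3 embryonic globins (Hbb-y, Hbb-bh1 and Hba-x), 2 erythroid transcription factors (Klf1 and Gata1), the erythropoietin receptor Epor, the heme enzyme Alas2 and the carbonic anhydrases Car1 and Car2. They were chosen because Hbb-y was higher in normal cells given doxycycline while genes of red cell development were not, so the values of all 9 in that comparison are a description and were not tested. Earlier results of these data were known when the genes were chosen, so tests of these genes in other comparisons may not be independent of the choice. Of the 9 genes, 8 had a probe set of their own among 22180 such genes on the arrays, and for each the probe set with the highest mean was used. The only probe set for Alas2 was shared with Apex2, so Alas2 has no value here.

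The 17 arrays compared fell into 6 groups, all of cells sorted from mice that carry doxycycline-inducible transgenes for Oct4, Sox2, Klf4 and c-Myc. Acute myeloid leukemia (AML) cells, driven by the MLL-AF9 fusion and sorted by their GFP from leukemic bone marrow, were given doxycycline (AML Dox, 3 arrays), a mix of VPA, CHIR, 616452 and TCP (AML Compound, 3 arrays) or neither (AML Control, 3 arrays). Normal marrow progenitors, sorted as LSK cells (Kit-positive and Sca1-positive, without lineage markers), were kept under the same conditions (LSK Dox, 3 arrays, LSK Compound, 2 arrays, and LSK Control, 3 arrays), so the control groups carry the transgenes as well. The arrays of a group are labelled as biological repeats, but the labels do not say whether they came from separate mice, and p-values then measure only the spread between these samples. In such bulk samples, fewer cells that make an RNA and less of that RNA per cell cannot be told apart.

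Globin is made as paired alpha-like and beta-like chains, and mice use different genes for them as they develop. The first red cells, made in the yolk sac, carry the embryonic beta-like chains of Hbb-y and Hbb-bh1 and the embryonic alpha-like chain of Hba-x, and the adult genes take over in the fetal liver and bone marrow. In adult erythroid cells GATA1 and KLF1 switch on the adult globins, heme synthesis and the red cell membrane, and repressors such as BCL11A hold the embryonic beta-like genes off.

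Hbb-y and Hba-x, embryonic genes of the beta and alpha globin loci, are shown by the 250 bases before their start sites, since Hbb-y was high in both Dox groups and Hba-x in none. The bases are those of RefSeq on GRCm38.p6, 5′ to 3′ on the strand of the gene, chr7:103853208-103853457 on the minus strand for Hbb-y and chr11:32276350-32276599 on the plus strand for Hba-x. Capitals mark matches, on either strand, to 5 short motifs. Kruppel-like factors bind the motif CACCC, and erythroid GATA factors bind the motif GATAA. The motif CCAAT is a common promoter element. The motif TATAAA is the TATA box where transcription is set up, and the motif ATAAAA is a variant that can overlap it.
Hbb-y: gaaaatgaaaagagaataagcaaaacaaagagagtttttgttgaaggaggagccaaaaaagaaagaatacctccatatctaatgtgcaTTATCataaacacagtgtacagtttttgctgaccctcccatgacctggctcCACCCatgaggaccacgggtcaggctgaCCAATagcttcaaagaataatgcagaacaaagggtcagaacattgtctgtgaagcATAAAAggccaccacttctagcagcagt
Hba-x: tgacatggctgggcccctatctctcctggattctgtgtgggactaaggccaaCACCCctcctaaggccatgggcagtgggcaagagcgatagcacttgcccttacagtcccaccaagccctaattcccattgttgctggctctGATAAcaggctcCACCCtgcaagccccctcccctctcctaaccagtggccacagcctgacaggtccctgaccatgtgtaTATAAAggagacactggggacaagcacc
Hbb-y had 1 match to each motif except the TATA box. CACCC began 111 bases before the start, GATAA (on the opposite strand, so spelled TTATC) 162, CCAAT 83 and ATAAAA 28 bases before it. Hba-x had 2 matches to CACCC, 198 and 95 bases before the start, and 1 to GATAA, 107 bases before it. Its TATA box began 28 bases before the start, as far as the variant of Hbb-y did, and the letters of the CCAAT motif were not in this window. Such letters are common: among 32851 mouse promoter windows of 300 bases (250 before the start and 50 after it), 57.5% held CACCC, 25.4% GATAA, 37.4% CCAAT, 13.6% the TATA box and 18.5% its variant. Promoters were found for 6 of the 9 genes in the table used.

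Values are log2 expression values as deposited, so a difference of 1 is a 2-fold change, and a probe set was taken to be above background on an array where it lay above the 40th percentile of that array, at log2 2.32 to 2.41. Arrays of a group correlated at 0.979 to 0.989 and arrays of different groups at 0.904 to 0.979. LSK Compound replicate 1 correlated with the others at only 0.638 to 0.672 and was left out. The other LSK Compound arrays, replicates 2 and 3, read 7.35 and 7.32 for Xist and 5.47 and 5.20 for the Y-linked Eif2s3y, against 9.28 to 9.56 and 1.50 to 2.02 on LSK Control arrays. Xist also differed between the cell types: it averaged 2.52 in AML Control and 9.46 in LSK Control cells. Eif2s3y averaged 2.02 and 1.77 in these groups. The part of these differences in any LSK Compound result, or in any comparison of AML with LSK cells (X-linked Gata1 among them), was not tested. As a check of the treatment, Klf4 averaged 9.14 in AML Dox cells and 3.27 in AML Control cells (limma adjusted p = 2.54e-16), and 8.21 in LSK Dox cells and 3.83 in LSK Control cells. Sox2 and Pou5f1 (Oct4) rose in AML Dox cells by 1.31 and 0.67 log2 and differed by 0.30 and 0.15 log2 in LSK Dox cells (limma adjusted p = 0.401 and 0.599), and Myc fell by 4.10 and 0.60 log2 in AML Dox and LSK Dox cells. Whether these probe sets read the transgenes was not tested.

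**Figure D1:**
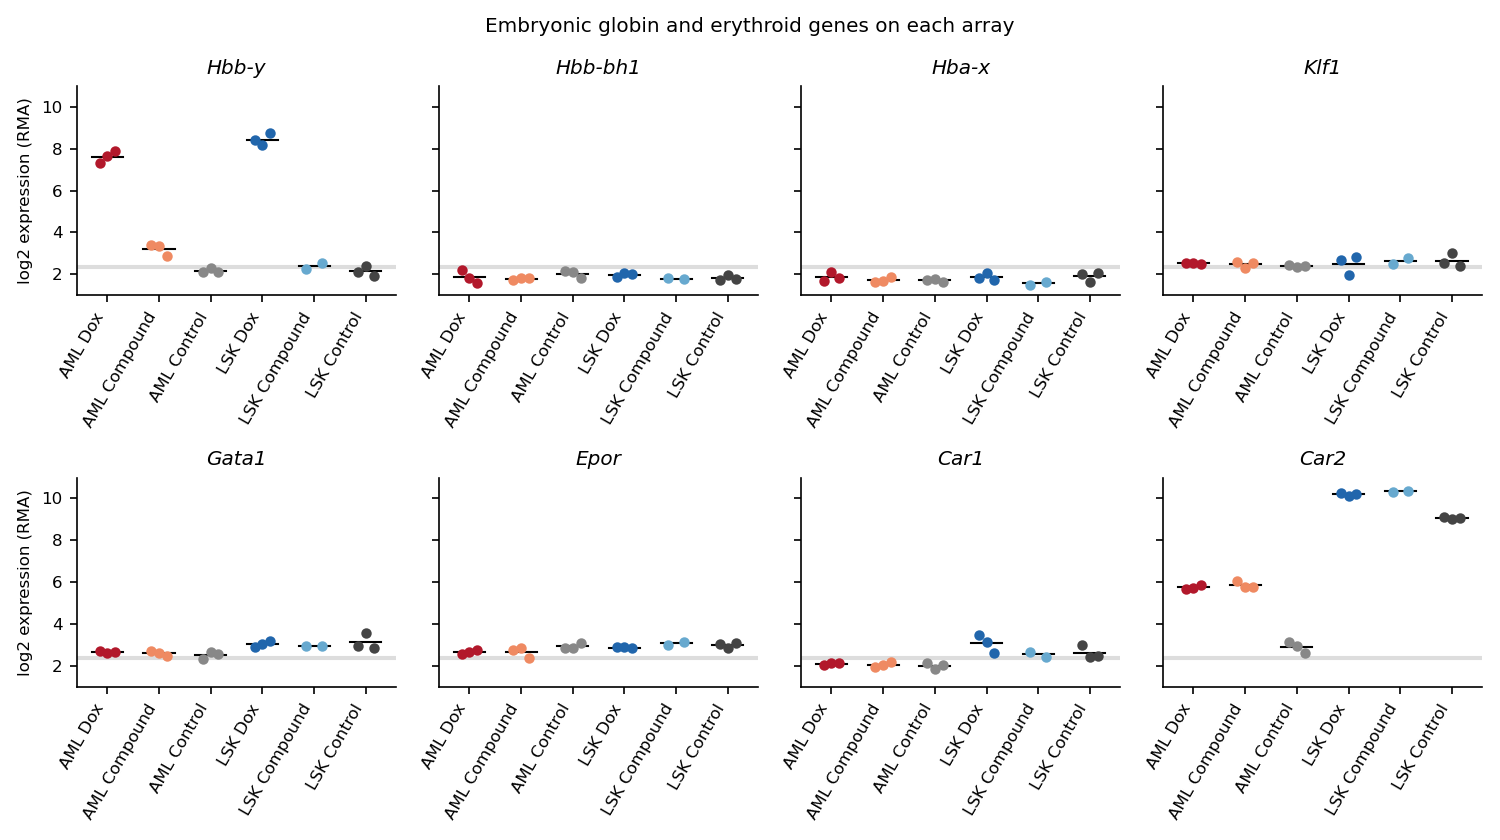
Log2 expression of the 8 genes with a probe set of their own on each array (points) with group means (bars), by group along the x axis; the grey band is the 40th percentile of the arrays. Hbb-y stands at 7.32 to 8.75 on the 6 Dox arrays, Car2 separates AML from LSK arrays, and the other 6 genes stay between 1.50 and 3.59.

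Hbb-y, the embryonic beta-like epsilon-y globin, was high in both Dox groups and close to background in both controls. On the AML Dox arrays it read 7.32, 7.65 and 7.91, on the AML Compound arrays 3.41, 3.34 and 2.86, and on the AML Control arrays 2.13, 2.29 and 2.10. Every AML Dox array thus lay above every AML Compound array, and these in turn lay above every AML Control array. Hbb-y rose by 5.45 log2 in AML Dox cells (SE 0.18, 95% interval 5.06 to 5.84, limma adjusted p = 1.18e-13). This rise may have been known when the genes were chosen, so its p-value is no independent support. None of the AML Control arrays was above background, so the rise is at least 38.8-fold, from 5.28 log2 with the low values set to the 40th percentile. Ranked from the highest rise, Hbb-y stood at position 13 of 16912 genes.

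In LSK cells the gene read 8.40, 8.16 and 8.75 with Dox, 2.25 and 2.55 with the compounds, and 2.11, 2.40 and 1.92 in controls. The Dox arrays again lay far above the other LSK arrays, while the compound and control arrays overlapped. LSK Dox cells were 6.29 log2 higher than LSK Control cells, position 1 of 16912 genes ranked from the highest rise, and at least 67.4-fold higher with the 2 control arrays that were not above background set to the 40th percentile. This is the comparison the gene was chosen from. The Dox response of Hbb-y was 0.84 log2 smaller in AML than in LSK cells, also a description only, since it contains that comparison.

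The compounds gave a small rise of Hbb-y in AML cells. It rose by 1.03 log2 in AML Compound cells, which is at least 1.81-fold (SE 0.18, limma adjusted p = 0.000322), and was higher on 3 of 3 arrays. In LSK Compound cells it differed from LSK Control by 0.26 log2 (95% interval -0.18 to 0.69, limma adjusted p = 0.399), a comparison that shares its control arrays with the one used to choose the gene. The compound response was 0.77 log2 larger in AML than in LSK cells, which did not pass (SE 0.28, limma adjusted p = 0.0681). It passed without AML Compound replicate 3 (0.94, limma adjusted p = 0.0212), without LSK Control replicate 3 (0.88, limma adjusted p = 0.049) and with low values set to the 40th percentile (0.76, limma adjusted p = 0.0495). Untreated AML and LSK cells differed in Hbb-y by 0.03 log2 (95% interval -0.36 to 0.42). Ordered by level, Hbb-y ran from LSK Dox through AML Dox and AML Compound to a bottom set of LSK Compound, AML Control and LSK Control, whose arrays overlapped.

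The other embryonic globins stayed at background. Hbb-bh1, the second embryonic beta-like gene and the immediate neighbour of Hbb-y on chromosome 7, was above background on 0 of 17 arrays. It read 2.20, 1.84 and 1.58 in AML Dox cells, against 2.18, 2.10 and 1.83 in AML Control cells, and 1.88, 2.08 and 1.999 in LSK Dox cells, against 1.72, 1.95 and 1.76 in LSK Control cells. Within each cell type the Dox and control arrays overlapped. Hba-x, the zeta-like chain that pairs with embryonic beta-like chains, was above background on 0 of 17 arrays too. It read 1.68, 2.12 and 1.82 in AML Dox cells, against 1.72, 1.77 and 1.66 in AML Control cells, and 1.83, 2.07 and 1.73 in LSK Dox cells, against 1.996, 1.64 and 2.05 in LSK Control cells. Again the groups overlapped, and neither gene entered the test, for which a gene had to be above background on at least 2 arrays. Of the 6 adult globin genes listed, 0 had a probe set of their own. Of 5 further entries (minor globins and the globin chaperone Ahsp), 3 had one and 2 were tested, Hbq1a and Hbq1b, theta-like globins of the alpha locus. Neither passed in any of the 5 group comparisons.

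**Figure D2:**
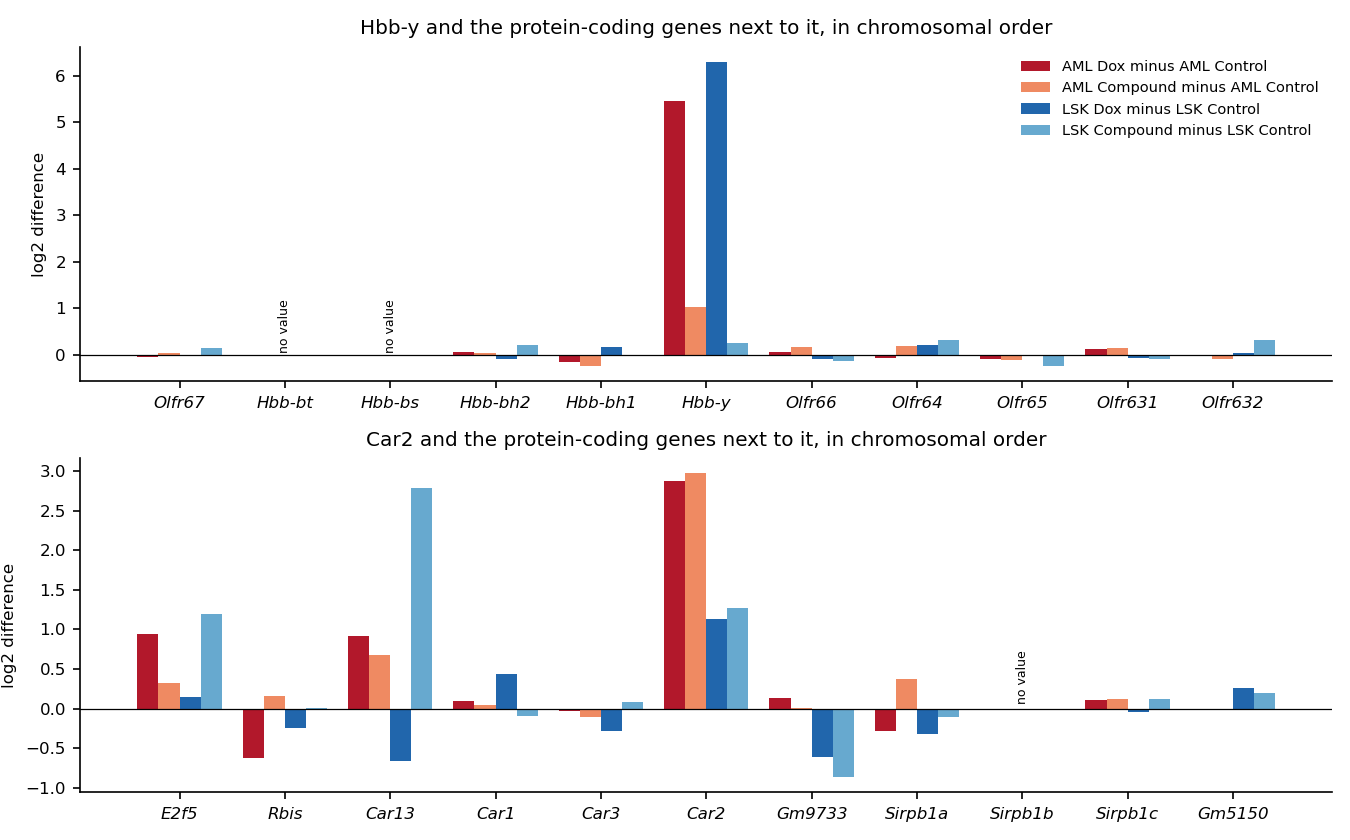
Log2 difference of each treatment from its control (bars, AML Dox, AML Compound, LSK Dox and LSK Compound) for the 5 protein-coding genes on either side of Hbb-y and of Car2 in chromosomal order. The measured genes around Hbb-y stay within 0.32 of 0 while Hbb-y reaches 6.29, and around Car2 the largest differences are those of Car2 (2.97) and Car13 (2.79).

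The genes beside Hbb-y, chosen after values were seen, were read on the same arrays. Of the 10 protein-coding genes nearest to it, 8 had a probe set of their own, and olfactory receptor gene Olfr632 was the one that passed the filter. The differences of these 8 genes from their controls lay between -0.25 and 0.32 log2 over the 4 treatments.

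Klf1 and Gata1 did not follow Hbb-y. Klf1, the Kruppel-like factor that activates adult beta globin, read 2.53, 2.55 and 2.49 in AML Dox cells and 2.42, 2.36 and 2.40 in AML Control cells. All AML Dox arrays lay above the controls, but by 0.13 log2 only, which did not pass (SE 0.19, limma adjusted p = 0.622). In LSK cells it read 2.69, 1.96 and 2.83 with Dox and 2.55, 3.01 and 2.41 in controls, which overlapped. Gata1, the zinc finger factor needed for red cell and megakaryocyte maturation, read 2.71, 2.596 and 2.67 in AML Dox cells and 2.31, 2.66 and 2.56 in AML Control cells. These overlapped, with a difference of 0.15 log2 (95% interval -0.17 to 0.47, limma adjusted p = 0.486). In LSK cells it read 2.88, 3.03 and 3.16 with Dox and 2.93, 3.59 and 2.87 in controls, and the groups overlapped as well. The compounds changed neither factor by a difference that passed: Klf1 and Gata1 differed by 0.08 and 0.09 log2 in AML cells and by -0.01 and -0.19 log2 in LSK cells. Without treatment, Gata1 was lower in AML Control than in LSK Control cells by 0.62 log2, on all arrays (SE 0.15, limma adjusted p = 0.00474).

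Epor, the receptor through which erythropoietin keeps red cell precursors alive, was low in all groups. It read 2.54, 2.65 and 2.77 in AML Dox cells, 2.77, 2.85 and 2.38 in AML Compound cells, and 2.85, 2.86 and 3.09 in AML Control cells. The AML Dox arrays lay below all AML Control arrays, by 0.28 log2, which did not pass as deposited (SE 0.12, limma adjusted p = 0.0658). With each array centred on its median the difference was -0.36 (limma adjusted p = 0.0248), and after quantile normalization -0.37 (limma adjusted p = 0.0244). The AML Compound and AML Control arrays overlapped, and the difference of -0.27 log2 did not pass (limma adjusted p = 0.108), but it passed without AML Compound replicate 2 (-0.36, limma adjusted p = 0.0434). In LSK cells Epor read 2.89, 2.89 and 2.83 with Dox, 3.01 and 3.13 with the compounds, and 3.03, 2.83 and 3.09 in controls, with all groups overlapping the controls.

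Car2 changed under every treatment tested, and differed more between the cell types than within them. Car2 encodes an abundant carbonic anhydrase of red cells that also marks early erythroid progenitors. In AML cells it read 5.66, 5.74 and 5.87 with Dox, 6.03, 5.78 and 5.77 with the compounds, and 3.12, 2.94 and 2.61 in controls. Both treated groups lay above all controls and overlapped each other. Car2 rose by 2.87 log2, or 7.31-fold, in AML Dox cells (SE 0.12, limma adjusted p = 1.07e-12) and by 2.97 log2, or 7.84-fold, in AML Compound cells (SE 0.12, limma adjusted p = 4.51e-12). These comparisons share the AML Control arrays.

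In LSK cells Car2 read 10.27, 10.13 and 10.21 with Dox, 10.30 and 10.36 with the compounds, and 9.12, 9.03 and 9.05 in controls. The treated arrays all lay above the controls, and even the LSK controls lay above every AML array. The LSK Dox difference was 1.14 log2, given as a description. Car2 rose by 1.26 log2, or 2.40-fold, in LSK Compound cells (SE 0.13, limma adjusted p = 5.44e-07). On the left-out LSK Compound replicate 1 it read 3.70, and with that array the difference was -0.95 log2 and did not pass (limma adjusted p = 0.543). The compound response was larger in AML than in LSK cells by 1.71 log2 (SE 0.17, limma adjusted p = 1.33e-06). Without treatment, Car2 was lower in AML Control than in LSK Control cells by 6.18 log2 (SE 0.12, limma adjusted p = 7.32e-16). By this difference it ranked at position 16911 of 16912 genes from the highest.

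Car1, the second red cell carbonic anhydrase and a neighbour of Car2 on chromosome 3, was higher in LSK than in AML cells as Car2 was, but did not change by a difference that passed in AML Dox, AML Compound or LSK Compound cells. In AML cells Car1 was above background on none of the 9 arrays, at 2.05, 2.14 and 2.14 with Dox, 1.94, 2.06 and 2.17 with the compounds, and 2.13, 1.83 and 2.06 in controls. In LSK cells it read 3.46, 3.13 and 2.63 with Dox, 2.68 and 2.41 with the compounds, and 2.996, 2.44 and 2.46 in controls, so that the LSK groups overlapped while all lay above the AML arrays. Untreated AML cells were lower by 0.62 log2, or at least 1.22-fold. Car1 passed the filter through LSK arrays alone, so this difference is a description. With low values set to the 40th percentile it was -0.28 log2, and its call did not hold there or without AML Control replicate 2 (-0.54) or LSK Control replicate 1 (-0.44).

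Of the 11 other carbonic anhydrase genes tested, 3 rose and 2 fell in AML Dox cells, or 45.5% called, against 47.0% of all genes. Car13, which lies beside Car1, rose by 0.92 log2 (limma adjusted p = 1.44e-05), Car15 by 0.73 and Car5b by 0.69, and the membrane-bound Car12 fell by 2.33 log2. In LSK Compound cells Car13 rose more than Car2, by 2.79 log2 (SE 0.15, limma adjusted p = 1.32e-10). The median change of the 11 genes was 0.12 log2 in AML Dox cells, against -0.0069 over all genes.

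Of the 9 genes 6 passed the filter and were tested. In AML Dox cells 2 of 6 passed, both higher, against 47.0% of all 16912 genes in either direction, 22.3% higher and 24.7% lower. In AML Compound cells 2 of 6 passed, both higher, against 30.8% in either direction, 12.3% higher and 18.5% lower. In LSK Compound cells 1 of 6 passed, higher, against 33.2% in either direction, 13.9% higher and 19.3% lower. Between untreated AML and LSK cells 3 of 6 passed, all lower in AML (Gata1, Car2 and Car1, which entered through LSK arrays alone, so the count supports nothing), against 28.4% in either direction, 14.7% higher and 13.6% lower. For the difference between the compound responses 1 of 6 passed, larger in AML, against 16.6% in either direction, 8.37% larger and 8.24% smaller. For the difference between the Dox responses, where the 6 were not tested, 38.8% of all genes passed. Comparisons with the LSK Control arrays share them with the comparison the genes were chosen from.

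**Figure D3:**
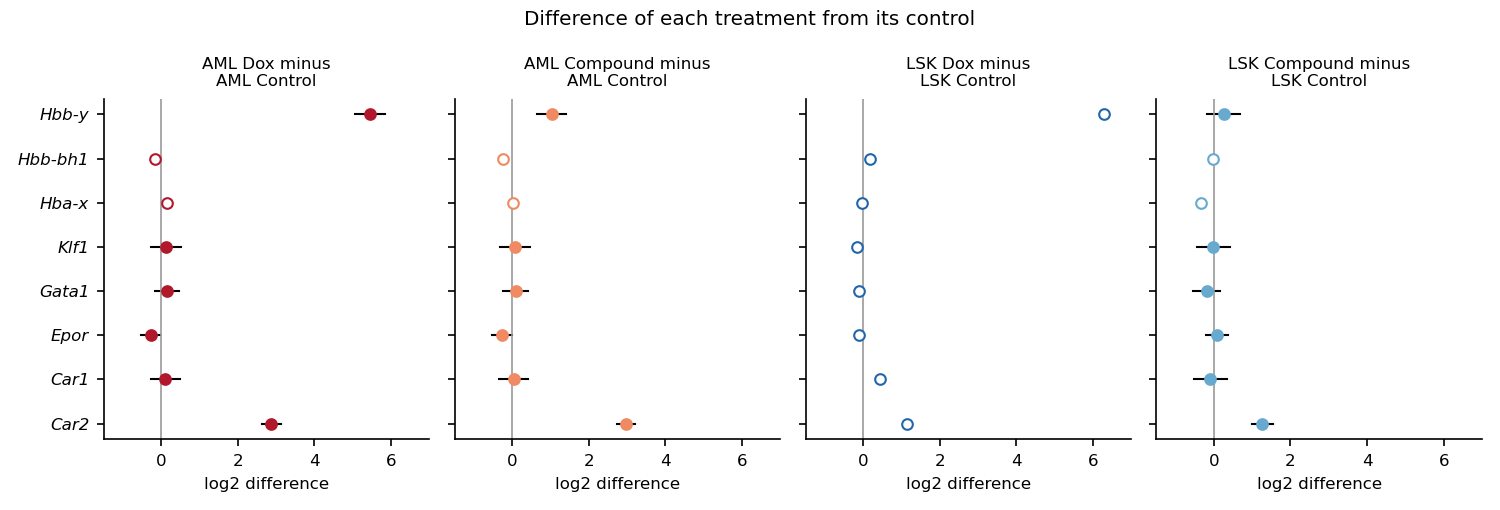
Log2 difference from the control of the same cell type for the 8 genes (rows) under AML Dox, AML Compound, LSK Dox and LSK Compound (panels); filled points are tested with 95% intervals (lines), open points are not tested. Hbb-y stands at 5.45 and 6.29 under Dox, Car2 between 1.14 and 2.97 under all treatments, and the rest lie near 0.

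The wider erythroid genes were read from 6 lists with 88 entries, of which 65 were tested. In AML Dox cells 9 of the 65 rose and 23 fell, or 49.2% called against 47.0% of all genes, with a median of -0.10 log2. In LSK Dox cells 6 were higher and 16 lower, or 33.8% against 18.3% of all genes, 8.87% of them higher and 9.43% lower. These and the other LSK Dox counts of listed genes are a description, since erythroid genes were chosen by their values in that comparison, and nothing is read from them. In AML Compound cells 7 rose and 13 fell, or 30.8%, the same share as over all genes (30.8%). In LSK Compound cells 7 rose and 22 fell, or 44.6%, against 33.2% of all genes. Between untreated AML and LSK cells 12 were higher and 14 lower in AML, or 40%, against 28.4% of all genes. Of red cell membrane proteins, chosen after values were seen, band 3 (Slc4a1) averaged 3.395 in AML Dox and 3.30 in AML Control cells (limma adjusted p = 0.713), and Rhag 2.02 in AML Dox and 2.15 in AML Control cells (limma adjusted p = 0.506).

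Heme synthesis and iron delivery genes were called lower more often than higher in AML Dox cells and under the compounds, as were all genes. In AML Dox cells 4 of 19 rose and 11 fell, with a median of -0.81 log2. That is 78.9% called, against 47.0% of all genes (22.3% higher and 24.7% lower). The transferrin receptor Tfrc, which brings in iron, fell by 3.70 log2, the housekeeping heme enzyme Alas1 by 2.29, the mitochondrial iron importer Slc25a37 by 1.83 and the ferritin chain Fth1 by 0.91 (limma adjusted p from 1.42e-14 to 1.98e-08). Of the 4 that rose, the heme synthesis gene Fech, named after values were seen, rose most, by 0.95 log2. It averaged 7.69 in AML Dox and 6.73 in AML Control cells. In LSK Dox cells 1 was higher and 8 lower of the 19 (47.4%, against 18.3% of all genes), with Alas1 lower by 1.20 log2. In AML Compound cells 2 rose and 5 fell (36.8%, against 30.8% of all genes), and in LSK Compound cells 4 rose and 9 fell (68.4%, against 33.2%). Over all genes 12.3% rose and 18.5% fell in AML Compound cells, and 13.9% rose and 19.3% fell in LSK Compound cells. With the compounds the listed gene Hmox1, which breaks heme down, rose by 2.30 log2 in AML and by 2.75 log2 in LSK cells. The listed ferritin chain Fth1, given here after values were seen, averaged 11.78 in AML Compound and 11.11 in AML Control cells. It averaged 12.28 in LSK Compound and 11.18 in LSK Control cells. The higher genes of this list under the compounds thus include genes other than heme synthesis enzymes.

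Of 15 erythroid transcription factors and cofactors, 2 rose and 9 fell in AML Dox cells, or 73.3% called against 47.0% of all genes. E2f4, a cell cycle repressor needed for red cell expansion, fell by 2.22 log2, the corepressor Cbfa2t3 by 2.74, Gata2 by 1.46 and the GATA1 partner Zfpm1 by 1.14. Under the compounds 2 rose and 5 fell in AML cells (46.7%, against 30.8% of all genes). In LSK Compound cells 0 rose and 9 fell (60%, against 33.2% of all genes). In LSK Dox cells 3 were higher and 4 lower (46.7%, against 18.3% of all genes). Gfi1b, a repressor needed for red cells and platelets, was lower there by 1.18 log2. Untreated AML cells had 4.07 log2 less Gfi1b than LSK cells (limma adjusted p = 5.28e-12).

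Of 16 membrane and cytoskeleton genes tested, 1 rose and 2 fell in AML Dox cells: Cd24a, a surface glycoprotein of many blood cells, rose by 2.46 log2, while Xk fell by 0.90 and glycophorin C (Gypc) by 0.37. That is 18.8% called, against 47.0% of all genes. Under the compounds 1 rose in AML cells, Cd24a by 3.33 log2, and 2 fell (18.8%, against 30.8% of all genes). In LSK Compound cells 0 passed, against 33.2% of all genes. In LSK Dox cells 2 were higher, among them the water channel Aqp1 by 1.65 log2, and 1 lower (18.8%, against 18.3% of all genes). Of 13 other erythroid genes 2 rose and 1 fell in AML Dox cells, or 23.1% called against 47.0% of all genes. The ubiquitin-pathway gene Ube2l6 was up by 1.90 log2 there. In LSK Compound cells 3 rose and 4 fell, or 53.8% against 33.2% of all genes, with Ube2l6 up by 2.63 log2, and between untreated cells 2 were higher and 5 lower in AML, or 53.8% against 28.4%.

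Genes listed under erythropoietin receptor signalling, a pathway that other cytokine receptors use as well, moved in different directions under the treatments. The list also holds Kit, which is a receptor of its own and a marker by which the LSK cells were sorted. In AML Dox cells 4 of 13 rose and 8 fell, or 92.3% called against 47.0% of all genes, with the feedback inhibitor Socs2 up by 3.78 and the kinase Jak2 up by 2.94, and Kit down by 2.78 and Pim1 down by 2.19 log2. Of the same 13, 5 rose and 3 fell in AML Compound cells (61.5%, against 30.8% of all genes), with Kit up by 1.54 log2. For LSK Compound cells the counts were 9 higher and 0 lower (69.2%, against 33.2% of all genes). The median there was 0.86 log2, and Jak2 was up by 2.08. In LSK Dox cells 3 were higher and 2 lower (38.5%, against 18.3% of all genes).

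**Figure D4:**
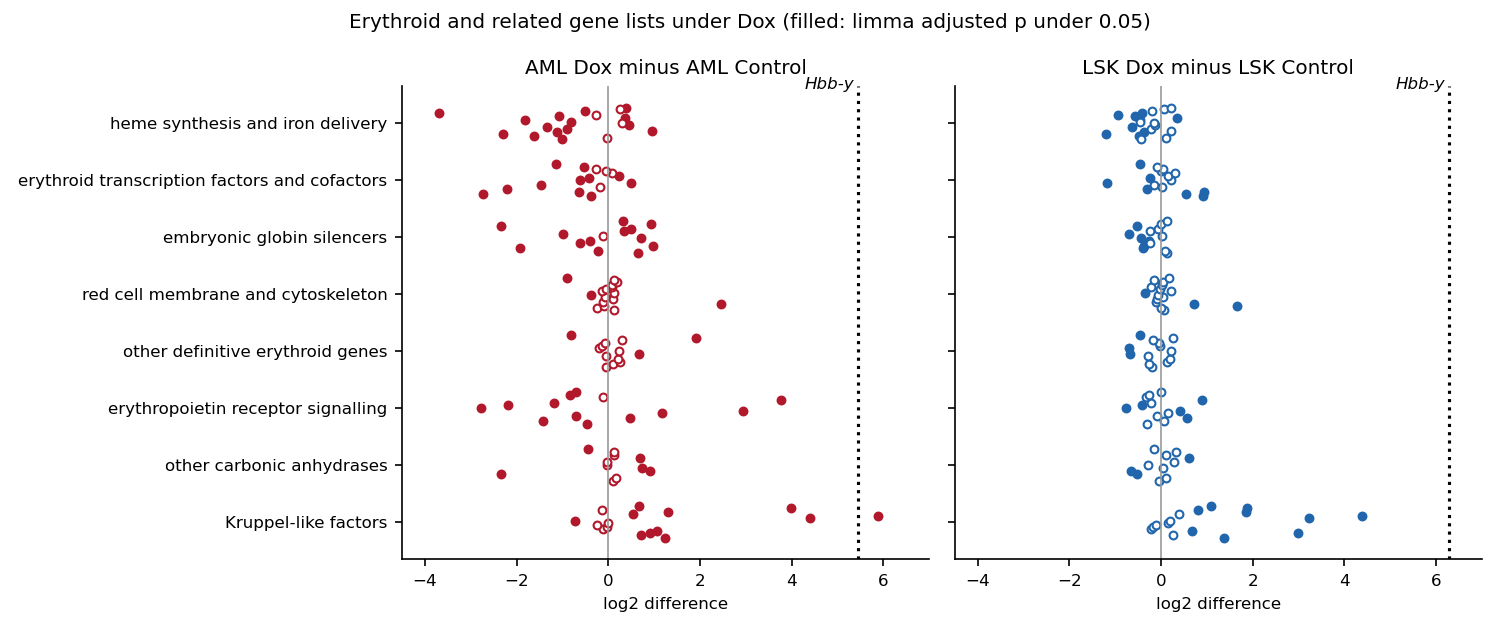
Log2 difference of AML Dox from AML Control (left) and of LSK Dox from LSK Control (right, a description only) for each tested gene of 8 lists (rows); filled points passed an adjusted p of 0.05 and the dotted line marks Hbb-y. In AML Dox cells no listed gene but Klf4, at 5.87, lies beyond Hbb-y, at 5.45, and in LSK Dox cells none does.

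The list of factors known to silence embryonic globin genes held 14 tested genes. Of these, 7 rose and 6 fell in AML Dox cells, or 92.9% called against 47.0% of all genes, with a median of 0.11 log2. Prmt5, an arginine methyltransferase, fell by 2.35 log2, the DNA methyltransferase Dnmt1 by 1.94 and the transcription factor Myb by 0.99, while the histone methyltransferase Ehmt2 rose by 0.97. Sox6 rose as well, averaging 3.15 in AML Dox and 2.23, near background, in AML Control cells. Kdm1a (6.92 and 6.21) and Nr2c2 (7.34 and 6.85) were also higher in AML Dox cells. In LSK Dox cells 0 were higher and 6 lower (42.9%, against 18.3% of all genes). There Myb was lower by 0.69, Prmt5 by 0.52, Dnmt1 by 0.40 and Ehmt2 by 0.37 log2. Of the 14, 1 rose and 9 fell in AML Compound cells (71.4%, against 30.8% of all genes). In LSK Compound cells 0 of them rose and 6 fell (42.9%, against 33.2%). Bcl11a, the best known of these repressors, differed between untreated cells: it averaged 2.56 in AML Control and 6.04 in LSK Control cells (-3.47 log2, limma adjusted p = 8.66e-13). Under Dox it averaged 3.21 in AML Dox and 2.56 in AML Control cells (0.65 log2, limma adjusted p = 0.000221), and 6.16 in LSK Dox and 6.04 in LSK Control cells. Hbb-y was at or near background in both controls and high in both Dox groups.

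Hbb-y was next set beside all other tested genes over the 17 arrays by Pearson correlation, as a description. Tppp3, which binds tubulin, came closest (r = 0.989), followed by the cholesterol exporter Abca1 (0.968), the cytoskeletal linker Plec (0.967), the collagen receptor subunit Itga2 (0.962) and the mitochondrial sulfide oxidase Sqor (0.962). Over 16911 genes, 37 had r above 0.9. All of these points share the 6 Dox arrays, which hold nearly all the spread of Hbb-y. Klf4, whose transgene Dox induces, came at position 14 (r = 0.943), and among the other 5 tested members r ran from 0.335 for Car1 to -0.367 for Epor. In AML Compound cells Hbb-y rose by 1.03 log2 and Itga2 stood 0.98 log2 above control, while Tppp3 and Klf4 stood 0.16 and 0.17 log2 above it. For LSK Compound cells the difference was 1.07 log2 for Klf4 (limma adjusted p = 2.16e-06) and 0.26 log2 for Hbb-y (limma adjusted p = 0.399). The list of Kruppel-like factors includes Klf4, whose transgene Dox induces, so its own rise is no result. In AML Dox cells 10 of the 16 listed rose and 1 fell (68.8% called, against 47.0% of all genes, 22.3% of them higher). Beside Klf4, Klf3 rose by 4.41 and Klf8 by 3.99 log2. In LSK Dox cells 9 were higher and 0 lower, as a description (56.2%, against 18.3% of all genes).

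**Figure D5:**
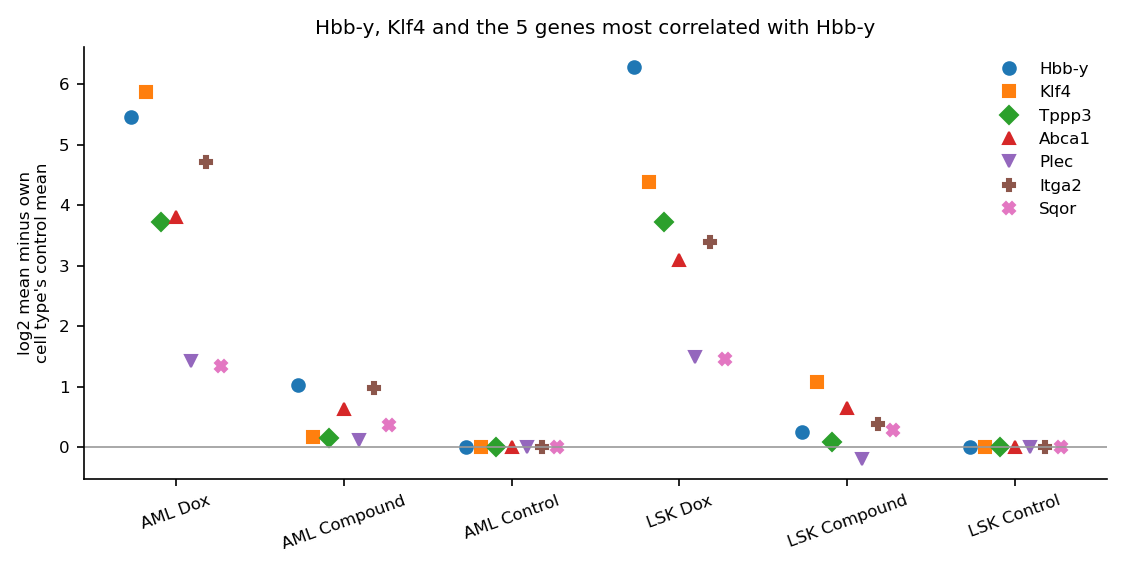
Mean log2 expression of Hbb-y, Klf4 and the 5 genes whose values correlate best with Hbb-y, as the difference from the control of the same cell type, by group along the x axis (markers are genes). All 7 genes are high in both Dox groups, by 1.34 to 6.29 log2, and none exceeds 1.07 with the compounds.

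Car2 had other companions. Its closest genes were Clec2d, a lectin-like receptor ligand (r = 0.978), the immunoglobulin segment Igkv5-43 (0.967), the stem cell factor Hlf (0.964), the lymphoid GTPase Gimap1 (0.961) and the Wnt receptor Ryk (0.960). With Hbb-y it correlated at 0.251. These values rest on the split between AML and LSK arrays, which carries most of the spread of Car2.

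Markers of other blood cells also moved in these groups. Over all genes, 47.0% were called in AML Dox, 30.8% in AML Compound, 18.3% in LSK Dox and 33.2% in LSK Compound cells. Of 9 megakaryocyte and platelet markers, a lineage that shares GATA1 with red cells, 0 rose and 1 fell in AML Dox cells (11.1% called). In LSK Dox cells 3 of them were higher and 4 lower (77.8%). In AML Compound cells 2 rose and 0 fell (22.2%), with Ppbp up by 7.73 log2 there. Ppbp alone averaged 10.46 in AML Compound and 2.73 in AML Control cells, so the mean of the 9 in AML Compound cells leans on it. In LSK Compound cells 3 of the 9 markers rose and 5 fell (88.9%). Their mean level was 2.92 to 3.08 on AML Dox, 3.86 to 4.05 on AML Compound and 2.93 to 3.06 on AML Control arrays, and 4.19 to 4.29 on LSK Dox, 4.46 to 4.48 on LSK Compound and 3.71 to 3.91 on LSK Control arrays. In AML Compound cells, where Hbb-y and Car2 rose, 8 of 8 monocyte and macrophage markers rose as well, with a mean level of 7.96 to 8.07, against 5.38 to 5.43 in AML Control cells. In AML Dox cells 2 of these 8 rose and 4 fell (75%), at a mean of 5.18 to 5.24, and in LSK Compound cells 4 rose and 3 fell (87.5%). Of 10 granule and neutrophil markers, 1 rose and 5 fell in AML Dox cells (60%), and 0 rose and 5 fell in AML Compound cells (50%). In LSK Dox cells 0 of these 10 were higher and 9 lower (90%), and in LSK Compound cells 0 rose and 10 fell (100%). Their mean level was 4.66 to 4.80 on AML Dox, 5.31 to 5.38 on AML Compound and 6.05 to 6.10 on AML Control arrays, and 6.38 to 6.42 on LSK Dox, 4.66 to 4.74 on LSK Compound and 7.55 to 7.80 on LSK Control arrays. The part of these shifts in the values of Hbb-y and Car2 was not tested.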

How the data were processed

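RNA of 18 samples was hybridised to 1-colour Affymetrix arrays, and the log2 values deposited by the authors are RMA values, per the submitters' processing notes; for its version and the genome build: not given in the sources used here. Of 41345 probe sets, 23521 had 1 gene, 1814 several and 16010 none listed. 23328 matched RefSeq by gene ID, and 0 symbols changed. The highest-mean probe set stood for a gene. Genes above the 40th percentile of an array on at least 2 of 17 arrays (16912) entered 1 limma fit (limma 3.58.1, R 4.3.3) with a mean per group, and Benjamini-Hochberg adjusted p at 0.05; the number of arrays limits the precision. The fit was tested on simulated data. LSK Compound replicate 1 was left out. Same-numbered samples did not deviate together (correlations -0.0621 to 0.0372), so no block was used.

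The genes and lists were chosen with earlier results of these data known. Named from each list were up to 4 genes with the smallest p, plus the treatment's factors, the listed silencers and the 5 genes best correlated with Hbb-y or Car2; exceptions are marked. Alternatives were other scalings, filters, floors, array sets and left-out replicates.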

Additional observations from a re-analysis of the deposited data

Results flagged for a closer look

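Car2 responded to the compounds in both cell types but by a different amount: the response was 1.71 log2 larger in AML than in LSK cells (limma adjusted p = 1.33e-06). It averaged 5.86 in AML Compound and 2.89 in AML Control cells, and 10.33 in LSK Compound and 9.07 in LSK Control cells. The LSK Compound mean is of 2 arrays, and the part of their Xist and Eif2s3y differences in this result was not tested. Epor was lower than the control mean on every AML Compound array and higher on every LSK Compound array, a difference of -0.35 log2 between the responses that did not pass (limma adjusted p = 0.223). On the left-out LSK Compound replicate 1, Klf1 read 3.38 and Epor 3.41, above all of the 17 arrays compared; the 40th percentile of that array was 2.88.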

How the results depend on the processing

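Of 722 alternative values, 675 moved little. This means the same direction and side of the threshold for a tested change, or a count within 1.5 times. For the untested LSK Dox values it means a shift no larger than the gene's standard deviation within groups, whatever the sign. The members called in AML Dox cells were 3 in place of 2 after centring or quantile normalization, with Epor added. The causes of the other changes were not tested. With all 18 arrays, the members called were 1 in AML Dox, 1 in AML Compound, 0 in LSK Compound cells and 0 for the difference between compound responses, and the genes called were 4237, 1054, 2937, 1423 (AML Control against LSK Control) and 524, against 7952, 5206, 5611, 4796 and 2809 without that array. Car2 then had limma adjusted p = 0.0916 in AML Dox and 0.188 in AML Compound cells, -0.95 log2 in LSK Compound cells and a response difference of 3.92 log2 (limma adjusted p = 0.302), Klf1 read 0.23 log2 in LSK Compound cells and -0.16 for the response difference, and Car1 had limma adjusted p = 0.0741 between untreated cells. The stricter filter left 1 member called between untreated cells. With low values at the 40th percentile, 2 members passed for the compound difference, with Hbb-y at 0.76, and Hbb-y differed by -0.0137 log2 between untreated cells. Leaving out 1 replicate at a time gave 1 to 2 members called for the compound difference, with Hbb-y at 0.62 to 0.94 log2, and Hbb-y at -0.0826 to 0.16 log2 between untreated cells. Likewise, LSK Dox differences were -0.33 to 0.10 for Klf1 and -0.24 to 0.12 for Gata1. Uncalled values that changed sign were, in AML Compound cells, Gata1 (-0.0065 to 0.16) and Car1 (-0.0407 to 0.11); in LSK Compound cells, Klf1 (-0.17 to 0.16), Gata1 (-0.31 to 0.0403) and Car1 (-0.23 to 0.09); between untreated cells, Epor (-0.13 to 0.0052); and for the compound difference, Klf1 (-0.0865 to 0.25) and Car1 (-0.0449 to 0.27). With the replicate number as a block, Klf1 was 0.0091 log2 in LSK Compound cells, and the block changed no member's call. A fit without any LSK Compound array, chosen after seeing the data, kept the call of each of the 6 members in the 3 comparisons without those arrays.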
